A study of Mus musculus with 6 samples.

Results

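Complement is a set of plasma and membrane proteins that tag particles and dying cells for uptake, recruit leukocytes and can perforate membranes. The genes described here encode the 3 chains of its recognition molecule C1q (C1qa, C1qb and C1qc), the alternative pathway proteins factor B (Cfb) and properdin (Cfp), and the receptors C3ar1, C5ar1 and Cr2. They were taken as every probe set, the group of oligonucleotides on the array that reports 1 transcript, whose platform annotation names exactly 1 of 9 listed complement genes. That gave 11 probe sets for 8 genes, of 20379 probe sets that name a single gene, and C3, the ninth gene, was not analysed here.

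The classical pathway starts when C1q binds antibody or altered surfaces, and C1q also marks apoptotic cells for phagocytes. Unlike most complement proteins, which the liver makes, C1q and properdin are made mainly by myeloid cells, macrophages among them. C3ar1 and C5ar1 sense the fragments released as the cascade runs, and Cr2 binds complement-coated antigen on B cells and follicular dendritic cells.

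The arrays compared CD11c+ cells from the spleens of untreated mice hypomorphic for Atg16L1, that is, with reduced function of this autophagy gene, with cells from wild-type mice. Mice of both genotypes were C57BL/6J and 8 weeks old, and each genotype had 3 Affymetrix MOE430A arrays. Cells were selected with magnetic beads, which enrich cells carrying CD11c (the product of Itgax) without removing every other cell. The labels do not describe the allele and do not say whether replicates were separate animals. The p-values therefore weigh differences against the spread of these arrays, which may be technical.

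On the deposited log2 scale, in which all levels here are given, Atg16l1 itself was at 6.13, 5.84 and 6.11 in the 3 hypomorph arrays, against 7.05, 7.11 and 7.04 in the wild-type arrays (log2 change -1.04, SE 0.10, limma adjusted p = 0.00139). The poly-A spike-ins, bacterial transcripts added before labelling, averaged 7.69 ± 0.18 in the hypomorph and 9.48 ± 0.50 in wild type (SD, n = 3 each), and the hybridization controls 10.33 ± 0.06 in the hypomorph and 11.35 ± 0.28 in wild type. Neither set overlapped between the genotypes. Their part in the gene differences was not tested, as the covariate fit given below cannot separate the spike-ins' signal from genotype. In the labels, the title of wild-type array 1 has a number prefix that the other titles do not share. What this prefix stands for is not said. Array versions in the titles differ from the platform name, and wild-type array 3 has another version than the rest. Of the dendritic cell list, 9 of 10 genes were measured and none lay below the lower quartile of signal over all probe sets. H2-Ab1, an MHC class II gene, was at 13.38 ± 0.06 in the hypomorph and 13.30 ± 0.04 in wild type. In that list, by the brightest probe set of each gene, Xcr1 rose, Itgax and Zbtb46 fell, and 6 of the 9 did not pass. Over all genes 9.65% rose and 8.32% fell. The other probe sets of Zbtb46 had log2 changes of 0.04 and 0.03 that did not pass (limma adjusted p = 0.841 and 0.895). Dpp4, also in the list, did not pass by its brightest probe set (log2 change -0.22, limma adjusted p = 0.169). Its dimmer probe set fell (log2 change -0.65, limma adjusted p = 0.0269). B cell genes were bright on all 6 arrays, with Ms4a1, which encodes CD20, at 10.99 ± 0.27 in the hypomorph and 11.69 ± 0.19 in wild type.

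Of the 11 complement probe sets, 6 were higher in the hypomorph at a Benjamini-Hochberg adjusted p under 0.05, where 9.95% of all probe sets were. With limma, 0 were lower (0 at an unadjusted p under 0.05), where 7.73% of all probe sets were. All 5 C1q probe sets and the 1 for Cfp rose, whereas the probe sets for Cfb, C3ar1, C5ar1 and Cr2 did not pass. In 7 of the 11 every hypomorph array lay above every wild-type array, as for 19.0% of all probe sets. The median log2 change was 1.18 over the 11 probe sets and -0.04 over all 20379. Counted as genes, with the brightest probe set for each, 4 of 8 rose, where 9.65% of all genes did. When any 1 array was left out, the same 6 probe sets rose. Without wild-type array 1 the log2 change was 1.67 for C1qa, 1.76 for C1qc and 1.16 for Cfp (adjusted p = 0.000584, 0.000584 and 0.00109).

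**Figure D1:**
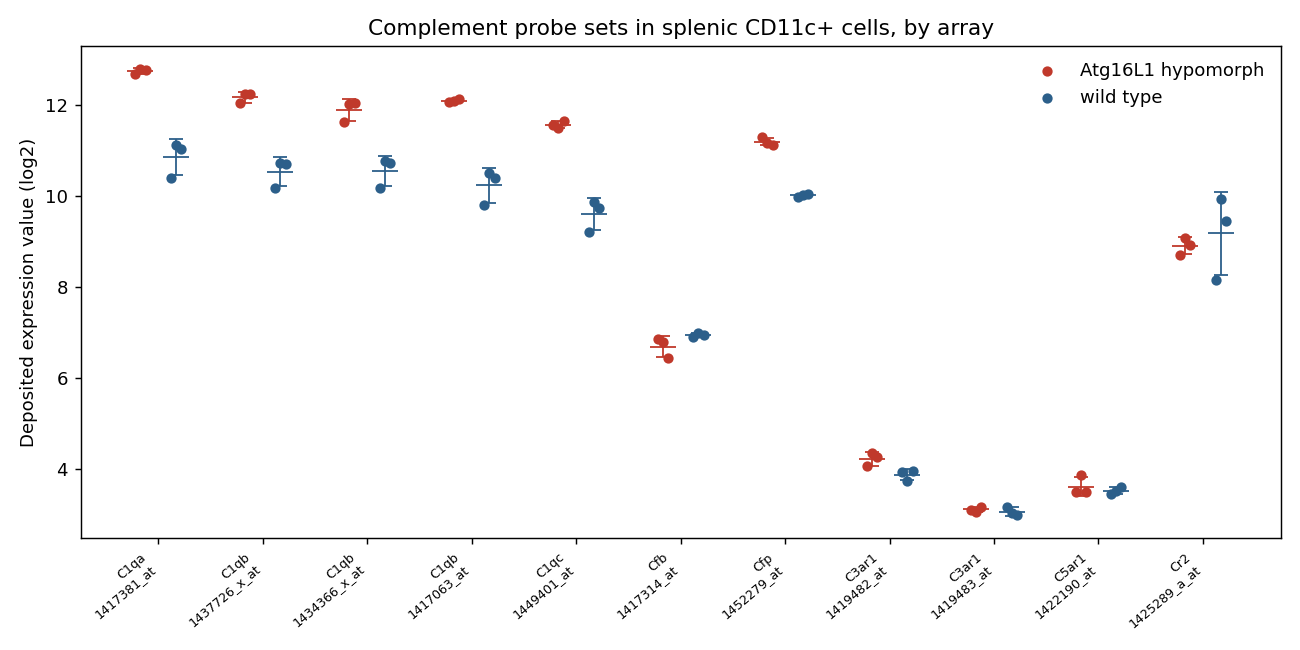
Deposited log2 expression values of the 11 complement probe sets (one column each, gene and probe set named) in 3 Atg16L1 hypomorph arrays (red, left) and 3 wild-type arrays (blue, right). Points are arrays, and bars are the mean ± SD. The C1q and Cfp columns show 2 separated groups, while the wild-type values of Cr2 run from 8.16 to 9.93 around those of the hypomorph.

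C1q genes changed most among the members. C1qa, the A chain, was at 12.67, 12.78 and 12.77 in hypomorph arrays 1 to 3, against 10.40, 11.12 and 11.03 in wild-type arrays 1 to 3. The groups did not overlap, and wild-type array 1 was the lowest. C1qa thus rose 3.71-fold (log2 change 1.89, SE 0.18, 95% interval 1.46 to 2.32, adjusted p = 0.0015).

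C1qc, the C chain, was at 11.55, 11.48 and 11.64 in the hypomorph arrays, against 9.19, 9.87 and 9.73 in the wild-type arrays. It rose 3.89-fold (log2 change 1.96, SE 0.17, adjusted p = 0.00124), again with wild-type array 1 lowest. Its change lay at the 99.8 percentile of all probe sets, which ranks size and sign together.

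C1qb, the B chain, has 3 probe sets, and they differed in size of change. The brightest was at 12.03, 12.24 and 12.24 in the hypomorph arrays, against 10.17, 10.73 and 10.69 in the wild-type arrays (log2 change 1.64, SE 0.16, adjusted p = 0.0015). Its other probe sets gave 1.86 (SE 0.18, adjusted p = 0.00143) and 1.33 (SE 0.19, adjusted p = 0.00518). The brightest of the 3 and the one with the smallest change carry the suffix x, Affymetrix's mark for oligonucleotides that may also match other transcripts. All 3 kept the groups apart, and over the 5 C1q probe sets the rise ran from 2.52-fold to 3.89-fold. With a minimum change of 1.5-fold built into the test, the probe set with the smallest change no longer passed (adjusted p = 0.146).

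The spread of the C1q genes was wider in wild type, with an SD of 0.06 for C1qa in the hypomorph and 0.39 in wild type. In all 5 C1q probe sets wild-type array 1 was the lowest. The mean of the 3 genes was 12.08, 12.17 and 12.22 in the hypomorph arrays and 9.92, 10.57 and 10.48 in the wild-type arrays. The difference of C1qa from C1qc on the same array was 1.18 ± 0.10 in the hypomorph and 1.25 ± 0.05 in wild type (SD, n = 3 each), and the groups overlapped. The difference of C1qa from the brightest C1qb probe set was 0.64, 0.54 and 0.53 in the hypomorph arrays, against 0.23, 0.39 and 0.33 in the wild-type arrays, and the groups did not overlap. This depends on the C1qb probe set chosen, as the brightest carries the suffix x and changed by 1.64. The C1qb probe set without that suffix changed by 1.86, close to the 1.89 of C1qa.

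C1qb, C1qc and C1qa follow each other in this order on chromosome 4 in the RefSeq gene order for GRCm38.p6, with no protein-coding gene between them. Of the 6 nearest flanking protein-coding genes, 3 on each side, 3 were measured. Tex46, Epha8 and Wnt4 had log2 changes of -0.07, 0.01 and -0.03, none of which passed (adjusted p = 0.768, 0.976 and 0.891). Their means were between 3.41 and 4.04 in the hypomorph and between 3.48 and 4.04 in wild type, near the low end of the signal range.

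The sequences before the C1qb and C1qc starts are given because these neighbouring genes rose together. C1qa rose with them, but no sequence was available for it. The windows shown are thus of C1qb and C1qc only. Each window is the 250 bases before the RefSeq start, in GRCm38.p6, written 5′ to 3′ on the strand of the gene, with GAGGAA or its reverse complement in capitals.
C1qb (chr4:136886201-136886450, minus strand): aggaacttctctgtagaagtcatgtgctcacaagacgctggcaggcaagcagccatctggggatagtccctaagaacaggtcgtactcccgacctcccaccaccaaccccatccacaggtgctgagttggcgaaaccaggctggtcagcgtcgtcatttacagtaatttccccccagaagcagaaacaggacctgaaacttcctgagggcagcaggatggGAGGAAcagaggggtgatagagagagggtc
C1qc (chr4:136892915-136893164, minus strand): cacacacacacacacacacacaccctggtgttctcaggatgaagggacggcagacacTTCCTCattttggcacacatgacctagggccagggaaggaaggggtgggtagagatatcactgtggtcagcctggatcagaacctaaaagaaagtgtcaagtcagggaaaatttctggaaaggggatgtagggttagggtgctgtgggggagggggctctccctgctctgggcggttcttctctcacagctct

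GAGGAA is a core bound by PU.1, an ETS factor of myeloid and B cells. It lies from base -30 to -25 of C1qb on the gene's strand, and from -193 to -188 of C1qc on the other strand, counted back from -1 next to the start. The windows of Cfp, C3ar1, C5ar1 and Cr2 do not hold these letters on either strand, and 23.3% of 32851 windows of this length in the table do. TGCTGA, a core of MAF factors, lies from -131 to -126 of C1qb and is held by 16.1% of all windows. It is also in the windows of C3ar1 (-144 to -139) and C5ar1 (-17 to -12), whose probe sets did not pass. Its match in C1qb does not overlap the PU.1 core. A TATA box, TATAAA (in 12.4% of all) and TTGCNNAA, a form bound by C/EBP factors (9.56%), were also searched on both strands and are not in the windows of C1qb or C1qc. Among the other member windows TATAAA is in that of C3ar1 (-235 to -230). These are matches of letters in a reference sequence, and binding was not measured.

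Markers of macrophages, which are the main source of C1q in many tissues, moved in the same arrays. Of 14 measured macrophage genes, 13 rose, where 9.65% of all genes did. With limma 0 fell (0 at an unadjusted p under 0.05), where 8.32% of all genes did, and the median log2 change was 1.59. Slc40a1, which encodes the iron exporter ferroportin, averaged 13.22 ± 0.12 in the hypomorph and 11.60 ± 0.43 in wild type. Vcam1, an adhesion molecule of red pulp macrophages, averaged 12.79 ± 0.09 in the hypomorph and 11.23 ± 0.35 in wild type. Cd5l, which encodes a secreted macrophage protein, averaged 11.91 ± 0.09 in the hypomorph and 9.98 ± 0.37 in wild type. Summed on the linear scale, the macrophage genes reached 34956 to 38432 in the hypomorph and 8451 to 13413 in wild type, and none of the 14 lay below the lower quartile of signal. Fewer or more cells of a type and less or more RNA per cell cannot be told apart in these bulk samples. The part of macrophage content in the C1q values was not tested.

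The mean of the C1q genes differed between genotypes by 1.83 on the log2 scale and the mean of the macrophage list by 1.64. On the same array, the C1q mean exceeded the macrophage mean by 1.85, 2.05 and 1.98 in the hypomorph, against 1.71, 1.72 and 1.88 in wild type. These ranges overlap, and wild-type array 1 was the lowest of the 6 for both means.

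By the root mean square difference of centred profiles over the 6 arrays, 5 genes of 6828 candidates were closest to the C1q mean. They were Adgre4, an adhesion-type receptor gene of myeloid cells (0.0427), Cd5l (0.0719), the ficolin gene Fcna (0.0774), Lgmn, which encodes the lysosomal protease legumain (0.0783), and the lectin receptor gene Cd302 (0.0971). Adgre4 was at 11.90, 11.99 and 12.01 in the hypomorph arrays, against 9.67, 10.36 and 10.19 in the wild-type arrays. The measure follows the genotype difference and the low wild-type array 1, which many genes share.

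With the spike-ins' signal in the fit as a covariate, with limma 0 of the 11 probe sets were higher (2 at an unadjusted p under 0.05). That signal did not overlap between the genotypes, so the fit cannot separate it from genotype. Its SEs were wide (median 0.295 over all probe sets), and 0 of all probe sets passed in it. The C1qc change was then 1.18 (SE 0.46, adjusted p = 0.516) and that of C1qa 0.90 (SE 0.44, adjusted p = 0.588). The C1qb probe sets gave 0.95, 0.73 and 0.27 in that fit (adjusted p = 0.579, 0.586 and 0.877), the last for the probe set with the smallest change.

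Cfp encodes properdin, which stabilises the C3-cleaving enzyme of the alternative pathway. It was at 11.28, 11.16 and 11.13 in the hypomorph arrays, against 9.97, 10.01 and 10.04 in the wild-type arrays. Both groups were tight and did not overlap. Cfp rose 2.27-fold (log2 change 1.18, SE 0.08, 95% interval 0.99 to 1.37, adjusted p = 0.000949), and wild-type array 1, the low one for C1q, lay close to the other wild-type arrays. On the same array, Cfp exceeded the macrophage mean by 1.05, 1.04 and 0.89 in the hypomorph and by 1.76, 1.16 and 1.44 in wild type, ranges that do not overlap. With the spike-in covariate the change of Cfp was 1.16 (SE 0.24, adjusted p = 0.387). Macrophage markers were higher in the same arrays (median 1.59), and their part in the Cfp values was not tested.

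**Figure D2:**
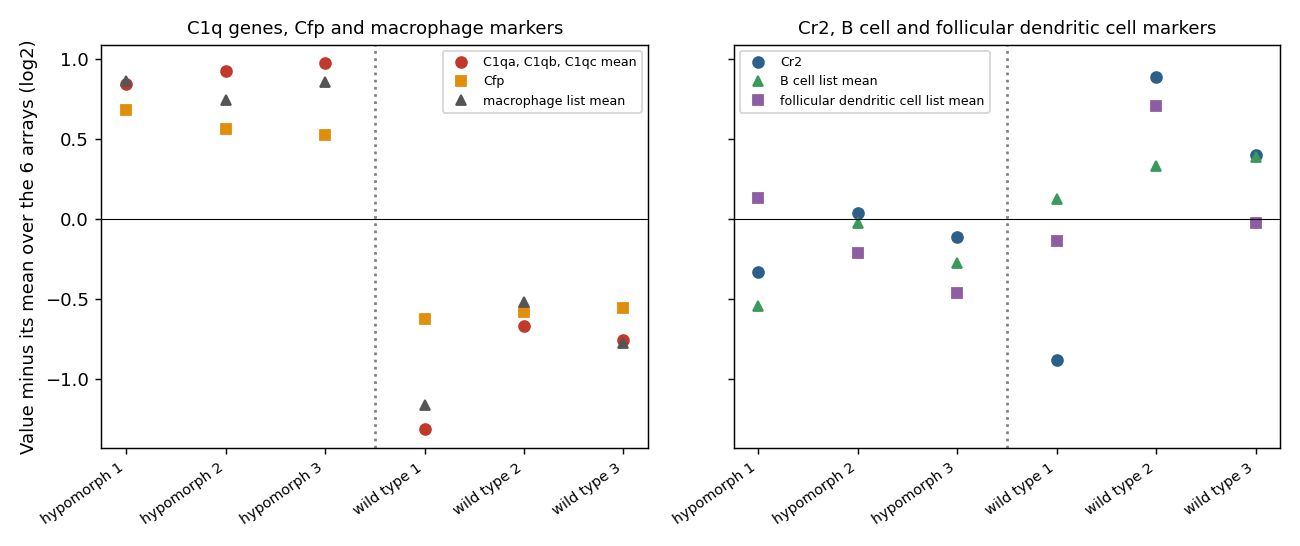
Each value minus its own mean over the 6 arrays (log2) for hypomorph arrays 1 to 3 (left of the dotted line) and wild-type arrays 1 to 3. The left panel shows the mean of C1qa, C1qb and C1qc, Cfp and the mean of the macrophage list, and the right panel shows Cr2 and the means of the B cell and follicular dendritic cell lists. Wild-type array 1 is lowest for the C1q and macrophage means and for Cr2, and wild-type array 2 is highest for Cr2.

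Cfb encodes factor B, which supplies the protease of the same enzyme. It was at 6.85, 6.78 and 6.43 in the hypomorph arrays, against 6.90, 6.99 and 6.95 in the wild-type arrays. The hypomorph values all lay below the wild-type ones, as for 20.8% of all probe sets. The difference did not pass (log2 change -0.26, SE 0.12, 95% interval -0.54 to 0.02, adjusted p = 0.185), and it was -0.13 (adjusted p = 0.44) without hypomorph replicate 3.

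C2, which encodes the related protease of the classical and lectin pathways, is the next protein-coding gene to Cfb on chromosome 17. It was at 7.65, 7.48 and 7.62 in the hypomorph arrays, against 6.08, 6.83 and 6.49 in the wild-type arrays, and rose 2.17-fold (log2 change 1.12, SE 0.18, adjusted p = 0.00825). The log2 value of C2 minus that of Cfb on the same array was 0.80, 0.70 and 1.19 in the hypomorph, against -0.82, -0.16 and -0.45 in wild type. This difference changed by 1.37 between genotypes, and the exact permutation test (two-sided) gave p = 0.1, the smallest value open to 3 against 3 arrays.

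C3ar1 encodes the receptor for C3a. Its brighter probe set was at 4.05, 4.35 and 4.26 in the hypomorph arrays, against 3.92, 3.73 and 3.95 in the wild-type arrays. The groups did not overlap, but the difference missed the threshold (log2 change 0.35, SE 0.11, 95% interval 0.10 to 0.60, adjusted p = 0.064). It passed after quantile normalization (0.42, adjusted p = 0.0284) and with array weights (0.37, adjusted p = 0.0443). The dimmer probe set averaged 3.11 ± 0.06 in the hypomorph and 3.06 ± 0.09 in wild type, with overlapping arrays (log2 change 0.05, 95% interval -0.15 to 0.24, adjusted p = 0.738).

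C5ar1 encodes the receptor for C5a, the chemoattractant made late in the cascade. It was at 3.49, 3.86 and 3.48 in the hypomorph arrays, against 3.46, 3.52 and 3.60 in the wild-type arrays. The groups overlapped, and the interval of the difference was -0.19 to 0.37 (log2 change 0.09, SE 0.12, adjusted p = 0.655). Without hypomorph replicate 2, the highest array, the change was -0.037 (adjusted p = 0.842). The dimmer C3ar1 probe set and that of C5ar1 lay below 3.71, the lower quartile of mean signal over all probe sets, where a change is hard to see.

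**Figure D3:**
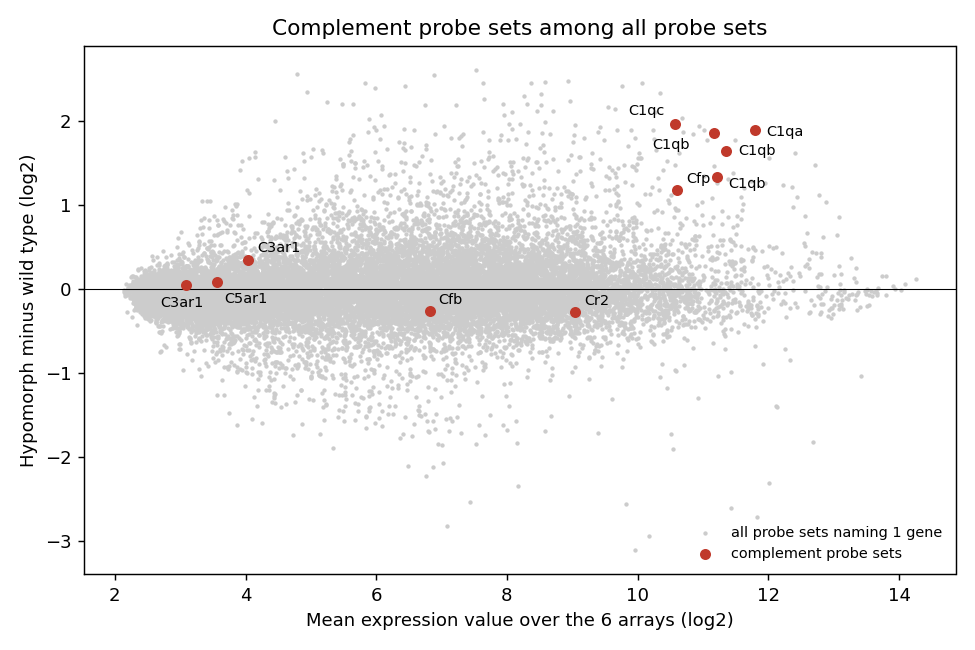
Change between genotypes (hypomorph minus wild type, log2) against the mean value over the 6 arrays (log2), for all 20379 probe sets that name 1 gene (grey) and the 11 complement probe sets (red, labelled). The C1q and Cfp probe sets lie at the upper right, with changes from 1.18 to 1.96, and those of C3ar1 and C5ar1 lie at the low end of signal.

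Cr2 in the mouse encodes both CD21 and CD35, made by splicing from this 1 gene. It was at 8.71, 9.08 and 8.92 in the hypomorph arrays, against 8.16, 9.93 and 9.44 in the wild-type arrays. Wild-type arrays 1 and 2 were the lowest and the highest of all 6. The difference did not pass (log2 change -0.27, SE 0.41, 95% interval -1.23 to 0.68, adjusted p = 0.679), and single wild-type arrays decided its value. Without wild-type replicate 1 it was -0.78 (adjusted p = 0.0333), which passes, and without wild-type replicate 2 it was 0.10 (adjusted p = 0.86).

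B cell genes were lower in the hypomorph, with 6 of 10 measured fallen and 0 risen with limma (0 at an unadjusted p under 0.05), where 8.32% of all genes fell. Cd22, an inhibitory receptor of B cells, averaged 9.47 ± 0.16 in the hypomorph and 10.21 ± 0.06 in wild type (log2 change -0.74, SE 0.10, adjusted p = 0.00443). Cd79b, part of the B cell receptor, averaged 9.90 ± 0.28 in the hypomorph and 10.53 ± 0.13 in wild type. Summed on the linear scale, the B cell genes reached 4304 to 6164 in the hypomorph and 7314 to 8773 in wild type, and 1 of the 10 lay below the lower quartile of signal. The mean of the list was 7.75, 8.27 and 8.02 in the hypomorph arrays, against 8.42, 8.63 and 8.69 in the wild-type arrays. Wild-type array 1 was the lowest wild-type array for the list mean as for Cr2, but it lay above all hypomorph arrays for the list mean and below them for Cr2.

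Of 5 genes of follicular dendritic cells, the stromal cells that carry Cr2 in B cell follicles, 1 fell, where 8.32% of all genes did. With limma 0 rose (0 at an unadjusted p under 0.05), where 9.65% of all genes did. Coch, a secreted protein gene of these cells, averaged 8.53 ± 0.32 in the hypomorph and 10.24 ± 0.82 in wild type (log2 change -1.71, SE 0.38, adjusted p = 0.0249). Cxcl13, the chemokine that draws B cells into follicles, was at 9.39, 8.92 and 8.48 in the hypomorph arrays, against 8.39, 9.93 and 9.08 in the wild-type arrays. Mfge8, which encodes a bridge to apoptotic cells, averaged 8.38 ± 0.37 in the hypomorph and 8.67 ± 0.43 in wild type. Bst1 and Madcam1, the rest of the list, had log2 changes above 0 by their brightest probe sets. These changes, 0.11 and 0.29, did not pass (limma adjusted p = 0.636 and 0.282). Cxcl13 and Mfge8, like Cr2, were highest in wild-type array 2. The summed linear signal of the list ran from 992 to 1660 in the hypomorph and from 1533 to 3935 in wild type, and the part of either cell type in the Cr2 values was not tested.

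The 5 genes with the profile closest to Cr2 were the lectin receptor gene Clec4d (root mean square difference 0.139), the histidine decarboxylase gene Hdc (0.184), the complement regulator gene Cd55 (0.194), the chemokine gene Cxcl10 (0.21) and G0s2, a lipase inhibitor gene (0.217). Clec4d was at 7.55, 7.69 and 7.38 in the hypomorph arrays, against 6.80, 8.42 and 7.89 in the wild-type arrays. It shares with Cr2 the low wild-type array 1 and the high wild-type array 2.

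Beyond these members, 29 of 39 other listed complement genes were measured. Of these, 5 rose, where 9.65% of all genes did, and 7 fell, where 8.32% did. Their median log2 change was -0.16, against -0.05 over all 12393 genes. With a minimum change of 1.5-fold, 3 rose and 0 fell (4 and 3 at an unadjusted p under 0.05, limma).

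Among the 3 classical pathway genes, C2 rose as given above and C1s1, the C1s protease that C1q carries, fell. C1s1 was at 4.60, 4.45 and 4.57 in the hypomorph arrays, against 5.48, 6.83 and 5.45 in the wild-type arrays (log2 change -1.38, SE 0.35, adjusted p = 0.0357). Wild-type array 2 was the highest, and the call was lost without any 1 hypomorph array (adjusted p = 0.0986, 0.116 and 0.104 without replicate 1, 2 and 3). C1ra, the partner protease C1r, averaged 5.15 ± 0.17 in the hypomorph and 5.34 ± 0.69 in wild type (adjusted p = 0.712), with a change of -0.19 that was 0.18 without wild-type replicate 2.

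Of 5 lectin pathway genes, 1 rose and 1 fell. Fcna encodes ficolin A, a lectin that recognises sugars and is made by macrophages in the mouse spleen. It was at 12.44, 12.29 and 12.38 in the hypomorph arrays, against 10.17, 10.85 and 10.77 in the wild-type arrays (log2 change 1.78, SE 0.18, adjusted p = 0.00163). Masp1, a lectin pathway protease, averaged 3.95 ± 0.15 in the hypomorph and 4.68 ± 0.23 in wild type by its brightest probe set (log2 change -0.72, adjusted p = 0.0137). The mean of its 5 probe sets did not pass (-0.22, adjusted p = 0.162), nor did the brightest without hypomorph replicate 1 (adjusted p = 0.0537).

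Of 6 terminal pathway genes, which build the membrane pore, 1 rose and with limma 0 fell (1 at an unadjusted p under 0.05). C6, a pore component, was at 9.45, 9.37 and 9.40 in the hypomorph arrays, against 6.83, 7.55 and 7.25 in the wild-type arrays. It rose 4.58-fold (log2 change 2.20, SE 0.17, adjusted p = 0.00107). Of the other 5 terminal genes, 4 lay below the lower quartile of signal.

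**Figure D4:**
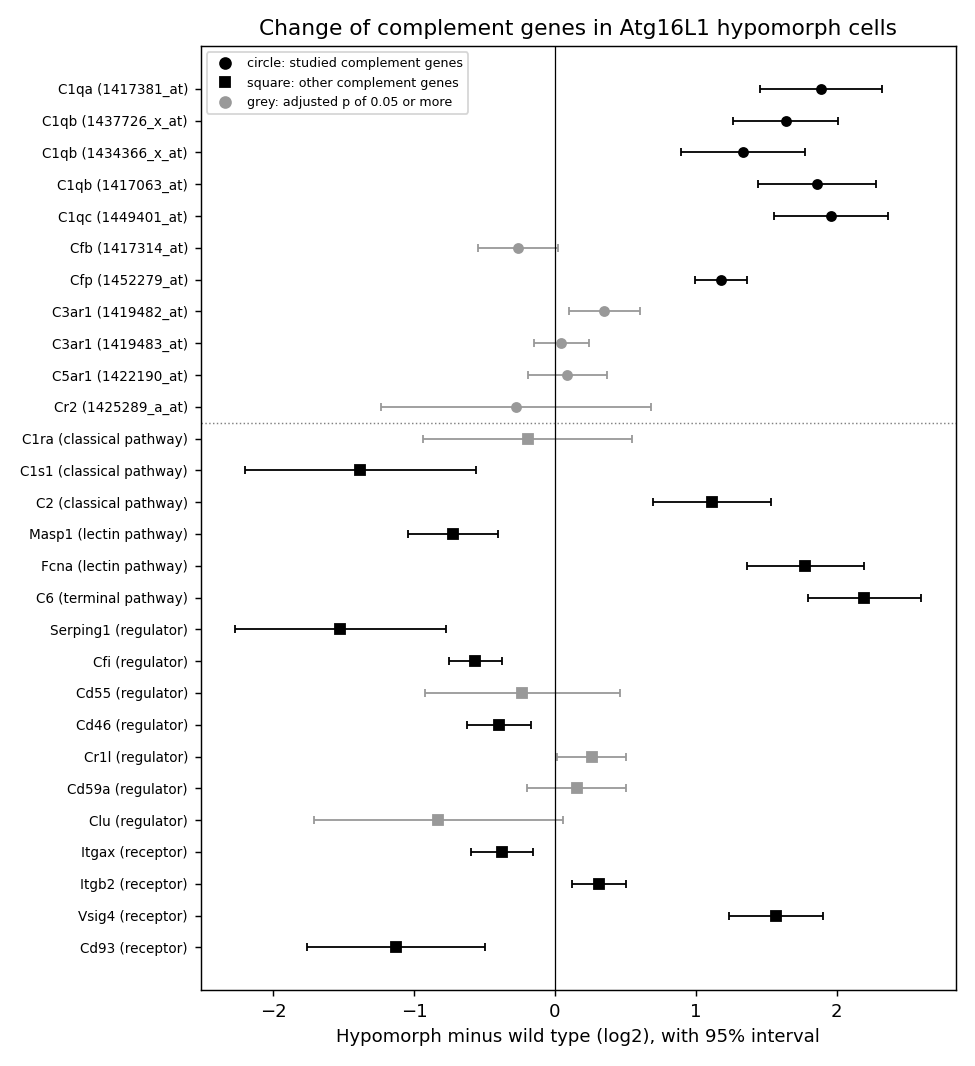
Log2 change (hypomorph minus wild type) with its 95% interval from limma for the 11 complement probe sets (circles, above the dotted line) and for other complement genes that passed or were the brightest that did not (squares, with their role). Black marks an adjusted p under 0.05 and grey one at or above it. C6, C1qc, C1qa and Fcna lie far to the right, and Serping1 and C1s1, with wide intervals, to the left.

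Of 10 regulator genes, 3 fell and with limma 0 rose (1 at an unadjusted p under 0.05). Serping1, which encodes the inhibitor of C1r and C1s, was at 5.90, 5.62 and 5.54 in the hypomorph arrays, against 6.68, 8.00 and 6.94 in the wild-type arrays (log2 change -1.52, SE 0.32, adjusted p = 0.0199). Like C1s1 it was highest in wild-type array 2, and its call was lost without any 1 hypomorph array (adjusted p = 0.0551, 0.0738 and 0.0777). Cfi, the protease that cuts C3b, averaged 3.19 ± 0.06 in the hypomorph and 3.75 ± 0.08 in wild type, low in the signal range (log2 change -0.56, SE 0.08, adjusted p = 0.00532).

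Cd46, a membrane cofactor for that protease, averaged 3.73 ± 0.04 in the hypomorph and 4.12 ± 0.15 in wild type (log2 change -0.40, adjusted p = 0.0324). The Cd46 call was lost without any 1 hypomorph array (adjusted p = 0.103, 0.116 and 0.0935), without wild-type replicate 3 (adjusted p = 0.0575) and after quantile normalization (adjusted p = 0.0587). Of the brightest regulators that did not pass, Clu, an inhibitor of pore assembly, averaged 9.36 ± 0.36 in the hypomorph and 10.19 ± 0.78 in wild type (log2 change -0.83, adjusted p = 0.175). Without wild-type replicate 1 Clu changed by -1.20 and Cd55, which speeds the decay of the C3-cleaving enzymes, by -0.59, and both passed (adjusted p = 0.0486 and 0.0327). Without wild-type replicate 2 the log2 change of Clu was -0.42 (adjusted p = 0.292). With all arrays the log2 change of Cd55 was -0.23 (adjusted p = 0.629), and without wild-type replicate 2 it was 0.01. These values are of the brightest Cd55 probe set, and the dimmer one changed by 0.04 with all arrays (limma adjusted p = 0.933).

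Cr1l, which encodes Crry, the main membrane regulator of mouse cells and the gene next to Cr2 on chromosome 1, averaged 9.28 ± 0.04 in the hypomorph and 9.02 ± 0.18 in wild type (log2 change 0.26, 95% interval 0.02 to 0.51, adjusted p = 0.128). Cd59a, which blocks the pore, averaged 6.02 ± 0.03 in the hypomorph and 5.86 ± 0.30 in wild type (adjusted p = 0.514), and its log2 change of 0.16 was -0.02 without wild-type replicate 1. With the spike-in covariate the log2 change was -0.09 for Cr1l and -0.64 for Cd59a (adjusted p = 0.951 and 0.623).

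Of 5 other receptor genes, 2 rose and 2 fell. Vsig4, a macrophage receptor for C3b fragments that is also in the macrophage list, was at 5.76, 5.83 and 5.77 in the hypomorph arrays, against 4.38, 4.38 and 3.89 in the wild-type arrays (log2 change 1.57, SE 0.14, adjusted p = 0.00125). Cd93, once described as a C1q receptor and abundant in endothelium, was at 5.76, 6.07 and 5.91 in the hypomorph arrays, against 6.54, 7.68 and 6.91 in the wild-type arrays (log2 change -1.13, SE 0.27, adjusted p = 0.0298). Its call was lost without any 1 hypomorph array (adjusted p = 0.101, 0.0777 and 0.0949) or wild-type replicate 3 (adjusted p = 0.0603). The dimmer Cd93 probe set changed by -0.25 and did not pass (adjusted p = 0.271). The mean of its probe sets changed by -0.69 and passed (adjusted p = 0.0446).

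The integrins known as complement receptors 3 and 4 share the beta chain of Itgb2. Itgb2 averaged 11.65 ± 0.07 in the hypomorph and 11.34 ± 0.08 in wild type (log2 change 0.31, SE 0.08, adjusted p = 0.0407). Its call was lost after centring on array medians (adjusted p = 0.0551), after quantile normalization (0.20, adjusted p = 0.16), and without any 1 array other than wild-type replicate 1 (adjusted p from 0.0838 to 0.147). Itgax, the alpha chain of receptor 4 and the CD11c by which the cells were selected, averaged 9.94 ± 0.07 in the hypomorph and 10.32 ± 0.13 in wild type (log2 change -0.37, SE 0.09, adjusted p = 0.0351). The Itgax call was lost without any 1 array other than wild-type replicate 2 (adjusted p from 0.0578 to 0.131).

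In every fit that left out 1 array, C2, Fcna, C6, Vsig4 and Cfi kept their calls. With the spike-in covariate, with limma 0 of the 29 other complement genes rose and 0 fell (4 and 1 at an unadjusted p under 0.05). In that fit the change was 1.67 for C6, 0.97 for Fcna, 0.62 for C2 and 2.36 for Vsig4 (adjusted p = 0.459, 0.589, 0.771 and 0.295).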

How the data were processed

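The authors deposited log2 expression values, 1 for each probe set on each array. They come from Affymetrix Power Tools, per the submitters' processing notes. The sources used here do not give its version, the background correction or the summarization. A log2 scale was inferred from the range of the values, and normalization between arrays from their close medians (5.66 to 5.72). This hides differences in total RNA per cell. Probe sets were named from the platform annotation, and 20379 that name 1 gene were tested. The members, gene lists and tests were chosen with earlier results of these data known.

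The comparison used lmFit and eBayes of limma 3.58.1 under R 4.3.3 (two-sided, no covariate, no filter) on all 6 arrays, with Benjamini-Hochberg adjustment over all 20379 probe sets. Intervals are 95% intervals of that fit. For genes outside the members, the probe set with the highest mean stood for the gene. Vsig4 and Itgax are each in 2 lists.

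The text names every member probe set, other complement genes that pass, the 5 brightest that do not, the 3 brightest of each marker list (macrophage, monocyte, B cell, follicular dendritic cell, dendritic cell, neutrophil) and the 5 genes most like the C1q mean and Cr2. Xcr1, Zbtb46 and Dpp4, Bst1 and Madcam1, Chil3, Ltf and Cxcr2 were named after their values were seen, and the neighbours of C1q by place. Likeness was taken over 1 probe set per gene with a mean at or above the median. Promoter sequences are from RefSeq, GRCm38.p6, and matches are given for those of C1qb, C1qc, Cfp, C3ar1, C5ar1 and Cr2. No promoter sequence was available for C1qa or Cfb. Only the bases before the start were used.

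On data simulated from these 20379 probe sets and this comparison, limma recovered 28.4% of 67 probe sets changed by 0.5 on the log2 scale, 92.5% of 67 changed by 1 and 97% of 66 changed by 2. It also called 15 unchanged probe sets. The simulated noise was independent with equal spread in both groups, while the measured spread of the C1q genes was wider in wild type. The precision is limited by 3 arrays per group. Alternatives were 1 probe set or the mean per gene, filters on dim probe sets, quantile normalization, median centring, array weights, robust fitting with a trend, a replicate block, the spike-in covariate, leaving out each array, and a minimum change of 1.5-fold. Python 3.11.15, pandas 2.3.3 and matplotlib 3.10.9 prepared tables and plots.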

Additional observations from a re-analysis of the deposited data

How the results depend on the processing

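With the poly-A spike-in covariate, limma called 0 probe sets (1932 at an unadjusted p under 0.05). The 6 complement probe sets and the 5 risen and 7 fallen other complement genes thus came to 0 each. C5ar1 turned to -0.26, Cr1l to -0.09 and Cd59a to -0.64. The spike-ins' signal did not overlap between the genotypes, so this fit cannot separate it from genotype. With a minimum change of 1.5-fold, 215 of all probe sets, 5 complement probe sets, 3 risen and 0 fallen other genes passed. Over all features 3604 probe sets differed, against 2260 with 1 probe set per gene and 2247 with the mean per gene, fits that test fewer features. Only above the median signal were 3 other complement genes lower, where 11 of 29 were tested. Whether the replicate numbers pair the samples was not settled by the correlations of deviations between same-numbered arrays (0.159, 0.0188 and 0.0997). Hypomorph arrays 1 and 3 correlated best with the wild-type array of the same number, and hypomorph array 2 with wild-type array 3 (0.134). With the replicate number as a block, 2214 probe sets differed, 4 other complement genes fell and the count of 6 was kept. In that fit C1s1, Cd46, Itgax and Itgb2 lost their calls (limma adjusted p = 0.0532, 0.0572, 0.0567 and 0.0839). Leaving out 1 array gave 6 to 6 complement probe sets higher and 0 to 1 lower, 4 to 5 other complement genes higher and 1 to 8 lower (1 without hypomorph replicate 1, 2 without replicate 2 or 3, and 4 without wild-type replicate 3), and 1279 to 3544 of all probe sets (1279, 1429 and 1615 without hypomorph replicate 3, 2 and 1), the smaller fits having fewer samples. Leaving out 1 array, Cr2 ran from -0.78 to 0.10 (0.10 without wild-type replicate 2) and C5ar1 from -0.037 (without hypomorph replicate 2) to 0.15. The causes of the other changes were not tested. Of 176 values of single complement probe sets under the alternatives, 163 kept direction and side of the threshold. Signals near the low end, as for C3ar1 and C5ar1, limit what can be seen.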

Other observations

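Other myeloid cells that make or respond to complement were followed by their own genes. Of 6 measured monocyte genes, Chil3, a chitinase-like protein gene, rose (5.91 in the hypomorph and 4.74 in wild type) and with limma 0 fell (1 at an unadjusted p under 0.05). Plac8 averaged 12.22 ± 0.11 in the hypomorph and 12.27 ± 0.12 in wild type (adjusted p = 0.787), and Ms4a4c 9.27 ± 0.16 in the hypomorph and 9.48 ± 0.21 in wild type (adjusted p = 0.32). Ccr2, the receptor that draws monocytes into tissue, averaged 7.93 ± 0.21 in the hypomorph and 8.24 ± 0.18 in wild type (adjusted p = 0.162). Of 9 measured neutrophil genes, 2 rose and 1 fell. Beside this list and the monocyte list, the shares over all genes were 9.65% risen and 8.32% fallen. The granule protein gene Ngp averaged 7.49 ± 0.16 in the hypomorph and 5.91 ± 0.49 in wild type (log2 change 1.58, SE 0.23, adjusted p = 0.00596) and the lactoferrin gene Ltf rose by 1.09, while the chemokine receptor gene Cxcr2 fell by 0.83. S100a8 and S100a9, which encode the abundant neutrophil calprotectin, had log2 changes of -0.28 and -0.59 that did not pass (adjusted p = 0.351 and 0.111). Flt3, a growth factor receptor gene of dendritic cells, averaged 9.62 ± 0.10 in the hypomorph and 9.94 ± 0.17 in wild type (adjusted p = 0.084).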
